A study of Mus musculus with 6 samples.

Results

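The TNF receptor superfamily is a family of surface receptors. Here 8 of its genes were followed across 6 arrays of regulatory T cells (Tregs) from mouse colon tumours. The 8 genes were taken by symbol from the array's platform annotation: Tnfrsf1a, Tnfrsf1b, Tnfrsf4, Tnfrsf8, Tnfrsf9, Tnfrsf18, Tnfrsf25 and Tnfrsf14. Each had 1 row in the deposited table, so all 8 were measured, out of 19494 genes in all. The mice were Foxp3-RFP x GPR15-GFP double reporters, in which red fluorescence marks Tregs and green fluorescence marks cells that use the Gpr15 gene, which encodes a homing receptor of colonic T cells. All carried both reporters, and all had colorectal cancer induced with azoxymethane (AOM), a carcinogen, followed by dextran sulfate sodium (DSS), which injures the colon lining. Their age, sex and strain background are not given in the sources used here. CD4-stained RFP+ cells of the tumorous colonic lamina propria were sorted into a GPR15-GFP+ and a GPR15-GFP- fraction, with 3 arrays of each, numbered 1, 5 and 6 in both. The labels do not say whether a number stands for 1 animal or a pool, so the p-values speak only of the spread among these samples, which may be technical.

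Receptors of this family bind trimeric ligands of the TNF superfamily and signal through adaptor proteins. Tnfrsf1a encodes TNF receptor 1, which most cell types carry and whose cytoplasmic death domain recruits the adaptor TRADD and can lead to NF-kB activation or to cell death. Tnfrsf1b encodes TNF receptor 2, which has no death domain, binds TRAF proteins directly and is known as a receptor that Tregs carry at a high level. Tnfrsf4 (OX40), Tnfrsf9 (CD137), Tnfrsf18 (GITR), Tnfrsf8 (CD30) and Tnfrsf25 (DR3) are costimulatory receptors that are known to be induced or raised on activated T cells and Tregs. Tnfrsf14 (HVEM) is both a receptor of the TNF family ligand LIGHT and a ligand of the inhibitory receptor BTLA.

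Values are log2 expression per probe set, made by the authors with RMA. Array medians lay between 6.53 and 6.65, and the spread of values was narrower on the arrays numbered 1 (SD 1.61 each) than on the remaining 4 (SD 1.72 to 1.86). Of the genes that should mark the sorted cells, all 7 measured T cell markers and 6 of 7 measured Treg markers were brighter than the median gene, while Il2ra, which encodes the Treg marker CD25, was dim at the 20.0 percentile. Foxp3 was not analysed here. Gpr15 lay at 8.51, 9.12 and 8.70 in the arrays labelled GPR15- and at 8.23, 7.86 and 8.28 in those labelled GPR15+, a difference of -0.65 ± 0.22 (SE; limma adjusted p = 0.773). Its direction goes against the labels, so every direction below rests on the labels alone. Neither the place of its probes in the reporter allele nor an exchange of labels was tested. Of 19494 genes, limma called 0 after Benjamini-Hochberg adjustment, and 1214 had an unadjusted p under 0.05 (2411 with the replicate number as a block, which also called 0). The precision of each value is limited by the number of arrays.

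All 8 receptors were brighter than the median gene, between the 74.4 and the 99.97 percentile. Averaged over the 6 arrays, the log2 level was 12.56 for Tnfrsf4, 12.03 for Tnfrsf9, 11.37 for Tnfrsf18, 10.46 for Tnfrsf25, 9.69 for Tnfrsf1b, 8.33 for Tnfrsf14, 8.03 for Tnfrsf1a and 7.76 for Tnfrsf8. The brightness of a probe set also depends on its probes, so this order is one of signal and not of transcript number. The first 5 places were the same on all 6 arrays. The last 3 places were not: Tnfrsf1a was the dimmest of the 8 on all 3 arrays labelled GPR15-, and lay above Tnfrsf8 on all 3 labelled GPR15+ and above Tnfrsf14 on 2 of those. The ranges of Tnfrsf4 and Tnfrsf9 overlapped (12.34 to 12.73 against 11.43 to 12.47), as did those of Tnfrsf9 and Tnfrsf18 (10.44 to 11.82).

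**Figure D1:**
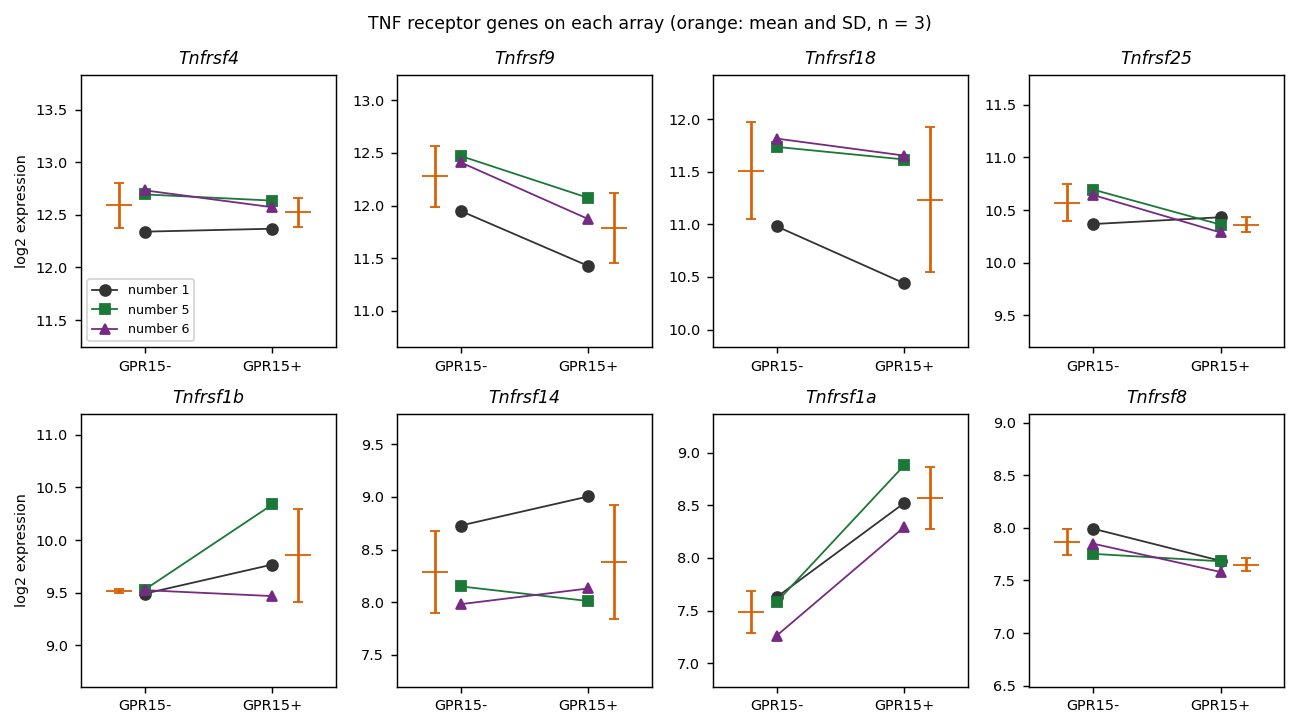
Log2 expression (y axis, the same span in each panel) of the 8 receptor genes in the GPR15- and GPR15+ fractions; lines join arrays of equal number, and orange bars give the mean and SD of 3 arrays. Tnfrsf1a lies higher in the GPR15+ array of each number (8.30 to 8.88 against 7.26 to 7.63), while Tnfrsf18 and Tnfrsf14 part the arrays numbered 1 from the others.

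Tnfrsf1a, the death domain receptor of TNF, gave the largest difference among the 8. Its log2 level was 7.63, 7.58 and 7.26 in the arrays labelled GPR15- numbered 1, 5 and 6, and 8.52, 8.88 and 8.30 in those labelled GPR15+. The fractions did not overlap, and the lowest GPR15+ array lay above the highest GPR15- array. Means were 8.57 ± 0.30 (SD, n = 3) and 7.49 ± 0.20 (SD, n = 3), a difference of 1.08 ± 0.21 (SE), or 2.11-fold, with a 95% interval of 0.60 to 1.56. Within the numbers 1, 5 and 6 the differences were 0.90, 1.30 and 1.03, so all 3 pairs had the same direction. The gene had the 18th smallest p of all genes, yet it did not pass after adjustment (limma unadjusted p = 9.2e-04, adjusted p = 0.773; with the replicate block 2.42e-04 and 0.176). It was already among the genes of smallest p in earlier work on these same arrays, and these values are no independent support for it.

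Tnfrsf1b, the other TNF receptor, lay at 9.49, 9.53 and 9.52 in the arrays labelled GPR15-, a spread of only 0.02 (SD, n = 3). In those labelled GPR15+ it lay at 9.77, 10.34 and 9.47 for numbers 1, 5 and 6, a spread of 0.44 (SD, n = 3). The GPR15+ array numbered 5 was the highest, and the one numbered 6 lay just below all 3 GPR15- arrays. The difference was 0.34 ± 0.23 (SE), with a 95% interval of -0.20 to 0.89 (limma adjusted p = 0.793). By number it was 0.28, 0.81 and -0.06, and leaving out the GPR15+ array numbered 5 or the one numbered 6 gave 0.10 or 0.54. Array weights gave 0.036.

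To set the TNF receptors against each other, the log2 value of Tnfrsf1a minus that of Tnfrsf1b was taken on each array. It was -1.86, -1.95 and -2.26 in the arrays labelled GPR15- and -1.24, -1.46 and -1.17 in those labelled GPR15+, with no overlap between the fractions. Means were -2.02 ± 0.21 and -1.29 ± 0.15 (SD, n = 3 each), a difference of 0.73 ± 0.15 (SE). It was 0.62, 0.49 and 1.09 within the numbers 1, 5 and 6. An exact 2-sided permutation test gave p = 0.1, the smallest that 3 arrays against 3 allow. Flipping the sign of the 3 pairs gave an exact p of 0.25, again the smallest possible. Neither test could pass at this size, and since the value contains that of Tnfrsf1a it is no independent support for a change of either gene.

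**Figure D2:**
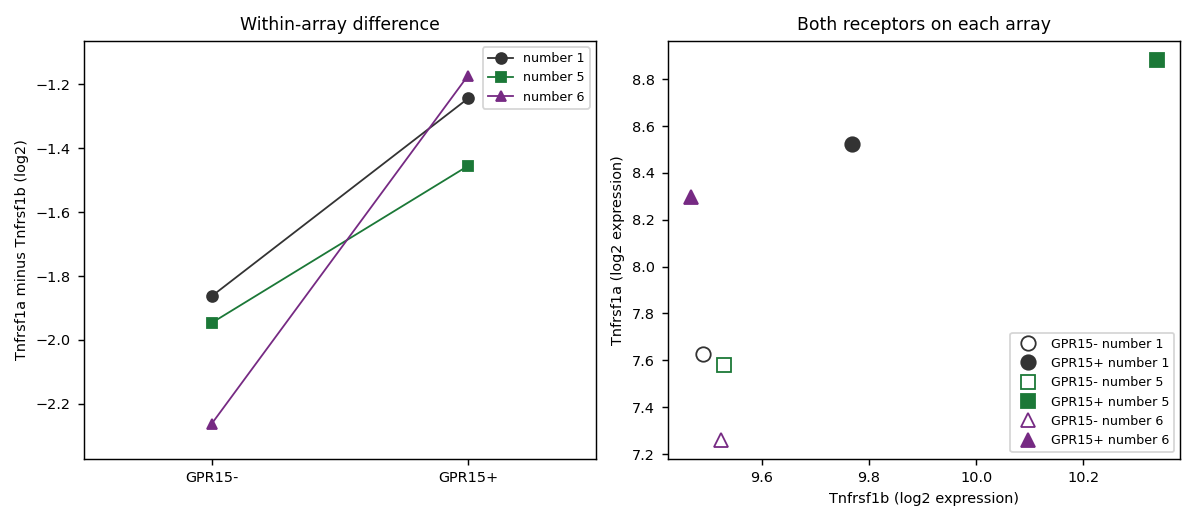
Left, the log2 value of Tnfrsf1a minus Tnfrsf1b on each array by fraction, with lines joining equal numbers; right, the log2 levels of both genes on each array (open GPR15-, filled GPR15+). The within-array difference lies between -2.26 and -1.86 in GPR15- arrays and between -1.46 and -1.17 in GPR15+ arrays.

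The regions before the start sites of this pair are shown because these are the receptors whose contrast the values above describe. They are RefSeq's, on build GRCm38.p6, and each gives the 250 bases before the annotated start. Tnfrsf1a is on the plus strand (chr6:125349473-125349722) and Tnfrsf1b on the minus strand (chr4:145246871-145247120). Capitals mark matches to the GC box GGGCGG and to the ETS core CCGGAA on either strand.
Tnfrsf1a: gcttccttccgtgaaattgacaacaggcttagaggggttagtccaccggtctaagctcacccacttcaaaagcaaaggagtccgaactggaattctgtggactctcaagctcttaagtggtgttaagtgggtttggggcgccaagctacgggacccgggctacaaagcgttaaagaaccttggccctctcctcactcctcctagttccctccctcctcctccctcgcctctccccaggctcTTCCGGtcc
Tnfrsf1b: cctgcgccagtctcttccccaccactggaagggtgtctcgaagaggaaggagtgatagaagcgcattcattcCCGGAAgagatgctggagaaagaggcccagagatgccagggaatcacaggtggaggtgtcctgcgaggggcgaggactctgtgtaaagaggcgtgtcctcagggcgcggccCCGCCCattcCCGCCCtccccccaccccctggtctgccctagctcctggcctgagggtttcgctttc
Both windows held more G and C than the median of 52.4% over 32851 windows, at 55.6% for Tnfrsf1a and 62.8% for Tnfrsf1b. The spread of this share over all windows was not taken. The window of Tnfrsf1b held 2 GC boxes, a motif in 32.7% of all windows, and that of Tnfrsf1a held 0. Each held 1 ETS core, found in 12% of all windows. Neither held CCAAT (33.8% of windows), TATAAA (12.4%), the AP-1 site TGACTCA (4.46%) or the NF-kB consensus (7.25%), all searched on both strands. The NF-kB consensus was in a window of 3 of the 8 receptors: Tnfrsf8, a second start of Tnfrsf9 and a second start of Tnfrsf25. This counts genes, of which Tnfrsf9 and Tnfrsf25 had 2 windows each, so it cannot be set beside the share of windows. A match is a description of the letters, and a window without one says nothing about the factor.

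Of the costimulatory receptors with the brightest signal, Tnfrsf9 differed most. Tnfrsf9, which encodes CD137, lay at 11.95, 12.47 and 12.41 in the arrays labelled GPR15- and at 11.43, 12.07 and 11.87 in those labelled GPR15+. The GPR15+ array was lower within each number, by -0.52, -0.40 and -0.54, but the fractions overlapped, since the GPR15- array numbered 1 was dimmer than the GPR15+ array numbered 5. The difference was -0.49 ± 0.23 (SE), or 0.713-fold, with a 95% interval of -1.03 to 0.05 (limma adjusted p = 0.773). With the replicate block its unadjusted p from limma was 0.0140 in place of 0.0705, and the adjusted p was 0.352. Without GPR15+ replicate 1 the difference was -0.31.

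Tnfrsf18, which encodes GITR, lay at 10.98, 11.74 and 11.82 in the arrays labelled GPR15- and at 10.44, 11.62 and 11.65 in those labelled GPR15+. The arrays numbered 1 were low in both fractions, and the fractions overlapped. The difference was -0.27 ± 0.37 (SE), with a 95% interval of -1.14 to 0.59 (limma adjusted p = 0.891), and it was -0.54, -0.12 and -0.16 by number. Without GPR15+ replicate 1 it turned to 0.12, and with array weights it was -0.046.

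Tnfrsf4, which encodes OX40, was the brightest of the 8 and the one that varied little between fractions. It lay at 12.34, 12.69 and 12.73 in the arrays labelled GPR15- and at 12.37, 12.64 and 12.57 in those labelled GPR15+, and the fractions overlapped. The difference was -0.06 ± 0.18 (SE), with a 95% interval of -0.48 to 0.36 (limma adjusted p = 0.945), and its sign turned when arrays were centred on their medians (0.0055). Tnfrsf4 and Tnfrsf18 are neighbouring protein-coding genes in the mouse gene table, as are Tnfrsf1b and Tnfrsf8, and 7 of the 8 receptor genes lie on chromosome 4, with Tnfrsf1a on chromosome 6.

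Tnfrsf8, which encodes CD30, was one of the 2 members whose fractions did not overlap, and it lay in the other direction from Tnfrsf1a. Its levels were 7.99, 7.75 and 7.85 in the arrays labelled GPR15- and 7.69, 7.68 and 7.58 in those labelled GPR15+. The gap between the fractions was small: the lowest GPR15- array and the highest GPR15+ array were 7.75 and 7.69. The difference was -0.22 ± 0.16 (SE), with a 95% interval of -0.58 to 0.15 (limma adjusted p = 0.799), and it was -0.31, -0.07 and -0.27 by number.

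Tnfrsf25, which encodes the TL1A receptor DR3, lay at 10.37, 10.70 and 10.64 in the arrays labelled GPR15- and at 10.43, 10.36 and 10.29 in those labelled GPR15+. The fractions overlapped only through the arrays numbered 1: the difference was 0.06 in number 1 and -0.33 and -0.36 in numbers 5 and 6. Over all arrays it was -0.21 ± 0.17 (SE), with a 95% interval of -0.59 to 0.18 (limma adjusted p = 0.811). Without both arrays numbered 1 it was -0.35, with an adjusted p from limma of 0.248.

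Tnfrsf14, which encodes HVEM, lay at 8.73, 8.15 and 7.98 in the arrays labelled GPR15- and at 9.00, 8.01 and 8.13 in those labelled GPR15+. Here too the arrays numbered 1 stood apart in both fractions, but as the highest. The difference was 0.10 ± 0.31 (SE), with a 95% interval of -0.63 to 0.82 (limma adjusted p = 0.953), at 0.28, -0.14 and 0.15 by number. Its sign turned without GPR15+ replicate 1, to -0.22, and without GPR15- replicate 6, to -0.06.

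**Figure D3:**
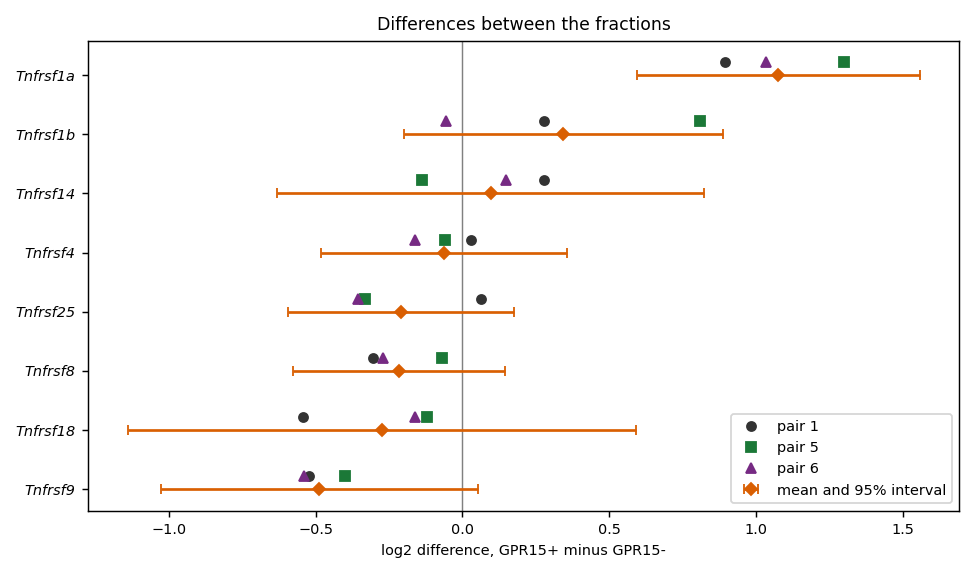
Log2 difference between the fractions (x axis, GPR15+ minus GPR15-) for each receptor; diamonds and bars give the mean and its 95% interval from limma, and the small symbols give the difference within each number. The interval of Tnfrsf1a (0.60 to 1.56) is the only 1 of the 8 that leaves out 0, before any adjustment for the number of genes.

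Counted together, 0 of the 8 passed after adjustment (limma), against 0% of all genes. At an unadjusted p under 0.05, 1 of 8 was found by limma, Tnfrsf1a, against 6.23% of all genes, and with the replicate block 2 of 8, Tnfrsf1a and Tnfrsf9, against 12.4%. The fractions did not overlap for 2 of 8, against 13.3% of all genes. The 3 numbers had the same direction in 4 of 8, against 37% of all genes. Tnfrsf1a was above 0 in each number (1 of 8, against 13.4% of all genes) and Tnfrsf8, Tnfrsf9 and Tnfrsf18 were below (3 of 8, against 23.6%). The median difference of the 8 was -0.14 beside -0.06 for all genes, with 5 of 8 below 0 beside 59.2% of all genes. These shares are those of few genes and set nothing apart about the receptors as a list.

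For some receptors the arrays numbered 1 differed from those numbered 5 and 6 as much as the fractions did from each other. The mean of the arrays numbered 1 minus that of the other 4 was -0.996 for Tnfrsf18, -0.52 for Tnfrsf9, -0.30 for Tnfrsf4 and 0.80 for Tnfrsf14, and between -0.10 and 0.12 for the others. The arrays numbered 1 did not overlap the other 4 for 3 of 8 receptors (Tnfrsf18, Tnfrsf4 and Tnfrsf14), against 36.5% of all genes. For Tnfrsf1a this gap was 0.07, beside a difference of 1.08 between the fractions, and for Tnfrsf18 the fractions differed by -0.27. With the arrays quantile normalized the gap was -0.69 for Tnfrsf18, 1.08 for Tnfrsf14, -0.31 for Tnfrsf9 and -0.11 for Tnfrsf4. With the intensity trend removed it was -0.66, 0.98, -0.18 and 0.03. For Tnfrsf1b and Tnfrsf25 both settings turned its sign (from -0.09 and -0.10 to between 0.23 and 0.25). For Tnfrsf1a the gap rose to 0.31 and 0.19 under these settings, beside differences of 1.01 and 1.04 between the fractions. For Tnfrsf8 it went from 0.12 to 0.28 and 0.18.

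**Figure D4:**
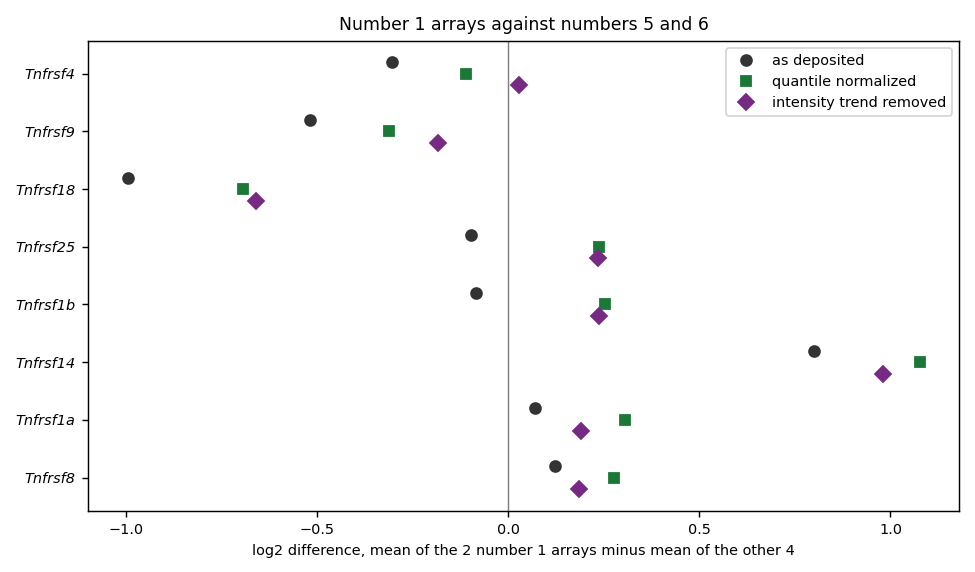
Log2 difference (x axis) between the mean of the 2 arrays numbered 1 and the mean of the other 4, for each receptor, as deposited and after 2 other scalings. Tnfrsf18 stays below 0 (-0.996, -0.69 and -0.66) and Tnfrsf14 above 0 (0.80, 1.08 and 0.98), while Tnfrsf25 and Tnfrsf1b change sign under both and Tnfrsf4 with the intensity trend removed.

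The ligands of the 8 receptors were read from the same fit. All 8 ligand genes were measured, and 0 passed after adjustment by limma, against 0% of all genes. Of the 8, 6 lay below 0, against 59.2% of all genes, with a median of -0.22 beside -0.06. Tnf, the cytokine that both TNF receptors bind, lay at 6.89, 6.82 and 5.94 in the arrays labelled GPR15- and at 7.69, 7.38 and 6.62 in those labelled GPR15+. It was higher by 0.80, 0.56 and 0.69 within the numbers, although the fractions overlapped (0.68 ± 0.35 SE; limma adjusted p = 0.773). Lta, which encodes lymphotoxin alpha, a further ligand of these receptors, differed by -0.28 ± 0.19 (SE).

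Tnfsf15, which encodes TL1A, the ligand of DR3, was the only 1 of the 8 ligands with an unadjusted p under 0.05 without the block (limma unadjusted p = 0.037, adjusted p = 0.773). The share over all genes was 6.23%. With the replicate block Tnf had the smaller unadjusted p from limma, 0.00272 against 0.0357, and neither passed after adjustment (0.269 and 0.386). Tnfsf15 lay at 9.38, 9.16 and 8.59 in the arrays labelled GPR15- and at 7.97, 8.57 and 8.59 in those labelled GPR15+. The difference of -0.67 ± 0.27 (SE) came mostly from numbers 1 and 5 (-1.41 and -0.59), since in number 6 it was -0.01, and without both arrays numbered 1 it was -0.30. The ligand of HVEM, Tnfsf14, differed by -0.37 ± 0.21 (SE) and the OX40 ligand Tnfsf4 by -0.48 ± 0.26 (SE). The CD137 ligand Tnfsf9 differed by 0.38 ± 0.22 (SE), the GITR ligand Tnfsf18 by -0.15 ± 0.29 (SE) and the CD30 ligand Tnfsf8 by -0.09 ± 0.21 (SE). Of these, Tnfsf4, Tnfsf9 and Tnfsf18 were dimmer than the median gene.

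Of 20 other receptors of the family 19 were measured, and of 10 other ligands 8. No member of either list passed after adjustment by limma. Among the receptors 8 lay above and 11 below 0 (median -0.05), while 59.2% of all genes lay below. From limma 1 of 19 had an unadjusted p under 0.05, against 6.23% of all genes. It was Cd40, the receptor through which antigen-presenting cells take T cell help, at -0.55 ± 0.20 (SE). Cd40 was lower within each number, by -0.51, -0.47 and -0.66, and its fractions did not overlap. That held for 2 of the 19, against 13.3% of all genes. Tnfrsf26 and Tnfrsf23, the latter a decoy receptor of TRAIL, differed by 0.58 ± 0.27 (SE) and 0.29 ± 0.18 (SE), and the ectodysplasin receptor Eda2r, a dim row, by -0.28 ± 0.16 (SE). Among the ligands 4 lay on each side of 0 (median 0.03). Tnfsf11, which encodes RANKL, differed by 0.59 ± 0.23 (SE; limma unadjusted p = 0.0305) and was higher within each number (0.80, 0.73 and 0.25). Cd40lg differed by 0.43 ± 0.23 (SE), Tnfsf13b, which encodes BAFF, by -0.25 ± 0.21 (SE) and Tnfsf10, which encodes TRAIL, by -0.35 ± 0.35 (SE).

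Downstream of the receptors, 20 of 22 adaptor and death signalling genes were measured, and 0 passed after adjustment by limma. Of the 20, 14 lay above and 6 below 0, with a median of 0.09, while 59.2% of all genes lay below. With the intensity trend removed 12 lay above and 8 below, where 9748 of 19494 genes lay above. Cflar, which encodes the caspase-8 inhibitor c-FLIP, had the smallest p of the list without the block (with it, Map3k5 had, at a limma unadjusted p of 0.0028 against 0.0053). Cflar lay at 8.95, 8.83 and 9.36 in the arrays labelled GPR15- and at 9.73, 9.70 and 9.71 in those labelled GPR15+, without overlap. The difference was 0.67 ± 0.19 (SE; limma unadjusted p = 0.00716, adjusted p = 0.773), at 0.78, 0.88 and 0.36 by number. Casp8, the caspase that c-FLIP restrains, differed by 0.46 ± 0.20 (SE), Traf2, an adaptor of TNF receptor 2 and of TRADD, by 0.64 ± 0.36 (SE), and the stress kinase Map3k5 by 1.03 ± 0.58 (SE). These 4 were above 0 in each number, but the last 3 overlapped between the fractions. In the list of 20, 7 had the same direction in each number, against 37% of all genes. The fractions did not overlap for 1 of 20, against 13.3%. Tradd itself differed by 0.04 ± 0.21 (SE).

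Of 14 genes of the NF-kB system 12 were measured, and 0 passed after adjustment by limma. Among them 4 lay above and 8 below 0, with a median of -0.07, while 59.2% of all genes lay below. The 4 with the smallest p all lay below 0 within each number: the IkB family genes Nfkbib (-0.51 ± 0.25 SE), Nfkbia (-0.27 ± 0.15 SE) and Nfkbiz (-0.39 ± 0.23 SE) and the subunit Rel (-0.27 ± 0.18 SE). Nfkbia and Nfkbib, which encode proteins that hold NF-kB in the cytoplasm, did not overlap between the fractions (2 of 12, against 13.3% of all genes). The 3 numbers had the same direction for 7 of the 12, against 37% of all genes. The IkB family was not lower as a whole. Bcl3, a nuclear member named after its values were seen, had the largest difference of the list, 0.73 ± 0.49 (SE), and lay above 0 within each number, by 0.29 in number 6 and by more in the others, and Nfkbie differed by 0.07 ± 0.20 (SE). With the replicate block Bcl3 had the smallest unadjusted p of the list from limma, 0.0216 against 0.0250 for Nfkbib. All 5 genes of the list on receptor shedding lay above 0, where 7959 of 19494 genes did, with a median of 0.07. Only 4 of the 5 did with quantile normalization or without the arrays numbered 1. None had the same direction in all 3 numbers, and none passed in the unweighted limma fit. The metalloproteases Adam10 and Adam17, which release ectodomains such as those of TNF receptors, differed by 0.41 ± 0.25 (SE) and 0.13 ± 0.24 (SE), and Rhbdf1 and Rhbdf2, regulators of ADAM17, by 0.07 ± 0.18 (SE) and 0.06 ± 0.17 (SE). The fifth gene, Timp3, encodes an inhibitor of ADAM17 and differed by 0.02 ± 0.19 (SE).

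**Figure D5:**
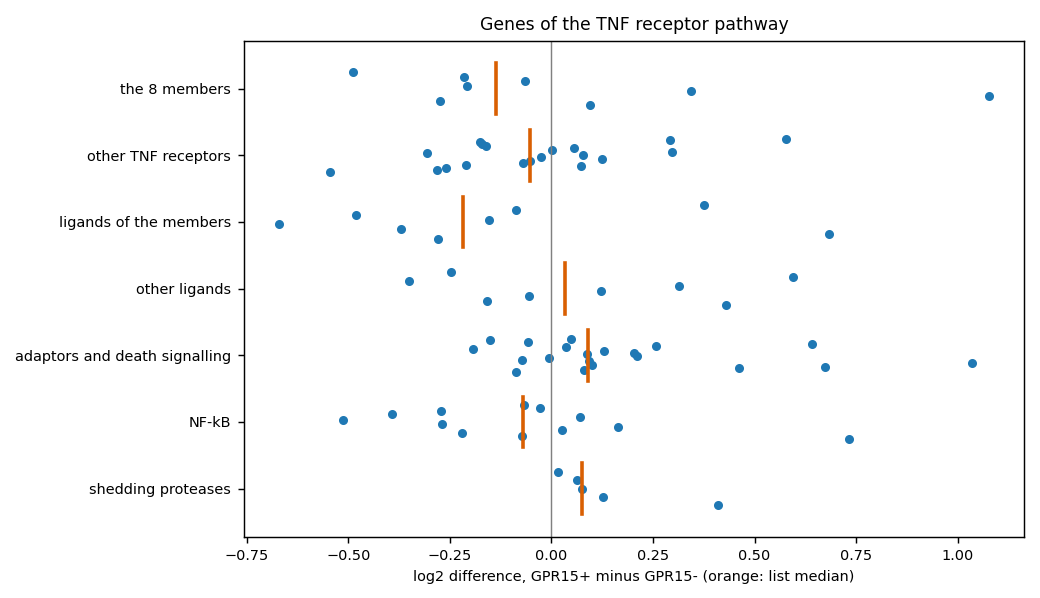
Log2 difference between the fractions (x axis) for each measured gene of the 8 receptors and of 6 related lists; a point is 1 gene and the orange mark is the list median. The medians lie between -0.22 and 0.09, and the points at the right end are Tnfrsf1a (1.08) and Map3k5 (1.03).

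The genes whose values over the 6 arrays were most like those of each TNF receptor were found by the root mean square distance between values centred on each gene's mean, among 9746 genes above the median level. Nearest to Tnfrsf1a were Gcnt2 (0.180 log2 units), which encodes a glycosyltransferase, Il1r1 (0.186), which encodes an interleukin-1 receptor, and Ppp1r3b (0.186), which encodes a regulator of glycogen synthesis. They differed between the fractions by 0.93, 1.22 and 0.89. Tnfrsf1b itself lay at 0.395 from Tnfrsf1a, the shortest distance of the other 7 receptors. This was not mutual, since Tnfrsf4 (0.331), Tnfrsf8 (0.372) and Tnfrsf25 (0.379) lay nearer to Tnfrsf1b than Tnfrsf1a did. Tnfrsf9 (0.502), Tnfrsf14 (0.530) and Tnfrsf18 (0.595) lay farther from it. Nearest to Tnfrsf1b were Rfc1 (0.114), which encodes a replication factor subunit, Atp6ap1 (0.118), which encodes a proton pump subunit, and Lysmd4 (0.120). All 3 were also highest in the GPR15+ array numbered 5. With 6 arrays, such nearness is a description only.

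Macrophages, epithelial cells and stromal cells are known to carry TNF receptor 1, so their markers were read beside Tnfrsf1a. The mean log2 level of 9 measured macrophage, monocyte and granulocyte markers was 5.65 to 6.16 in the arrays labelled GPR15+ and 5.99 to 6.21 in those labelled GPR15-, and 8 of 9 lay below 0. Of 9 epithelial markers 7 lay below 0, with means of 6.45 to 6.89 against 6.83 to 6.89, and of 7 stromal and endothelial markers 6, with means of 6.66 to 6.85 against 6.68 to 6.87. All 5 dendritic cell markers, 3 of 4 B and plasma cell markers and 4 of 5 CD8 T and NK cell markers lay below 0 too, and 0 of these genes passed by limma. At an unadjusted p under 0.05 from limma, Lyz2, Mzb1, Gzma, Vil1 and Phgr1 of these markers lay lower and 0 lay higher. Of 19494 genes 670 lay lower and 544 higher at that threshold. Gzma differed most, by -1.40 ± 0.37 (SE, limma unadjusted p = 0.00548, adjusted p = 0.773), without overlap, while Klrb1c of the same list lay at 0.04. Of all genes 59.2% lay below 0, and the macrophage, epithelial and stromal counts moved with scaling. Those of the dendritic cell, B and plasma cell and CD8 T and NK cell markers did not. They stayed the same with arrays centred, quantile normalized or with the intensity trend removed. Many of these rows were dim, however. Brighter than the median gene were 2 of 5 dendritic cell, 0 of 4 B and plasma cell and 3 of 5 CD8 T and NK cell markers. When the dimmest genes were left out, 3, 1 and 3 of them remained, all below 0. Array weights put 4 of 4 B and plasma cell markers and 3 of 5 CD8 T and NK cell markers below 0. With the intensity trend removed, 6 of 9 macrophage markers, 6 of 9 epithelial markers and 3 of 7 stromal markers were below 0, with a stromal median of 0.02. The part of these cells in the differences of Tnfrsf1a, Cd40 and Tnfsf15 was not tested. T cell markers lay at a mean of 10.63 to 10.99 in GPR15+ and 10.60 to 11.01 in GPR15- arrays, with a median difference of 0.02. Of 7 measured Treg markers 4 lay above and 3 below 0, with a median of 0.10. Only Ikzf2 of these 7 had an unadjusted p under 0.05 from limma, against 6.23% of all genes. It differed by -0.52 ± 0.19 (SE; limma unadjusted p = 0.0254, adjusted p = 0.773), without overlap, and was lower within each number. In sorted populations a change in the number of cells that carry a transcript and a change in its amount per cell cannot be told apart.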

How the data were processed

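The authors deposited log2 values per probe set, made with RMA (no version stated) per the submitters' processing notes; array name, genome build and detection calls are not given in the sources used here. Of 22142 rows, 19527 had 1 gene symbol in the platform annotation, 0 several and 2615 none (not used). For the 33 genes with several rows the brightest was kept, which left 19494 genes. R 4.3.3 and limma 3.58.1 served for the fit (lmFit, then eBayes, without a block). Adjustment was by Benjamini-Hochberg over all genes, with a threshold of 0.05. The fit was run on simulated data with added shifts larger than any difference of the 8 receptors. That check does not cover differences of the receptors' size. Deviations from fraction means correlated at 0.567, 0.381 and 0.319 between arrays of equal number, each over 0.1, and the arrays were treated as paired by number in the block fit. Arrays 5 and 6 were hardly parted (0.315 and 0.213 when crossed). The 8 receptors and all lists were chosen with earlier results of these data known. Always named were the receptors, their ligands, Gpr15, Cd4 and Il2ra, and from each other list the 4 genes of smallest unadjusted p. Tradd, Bcl3, Nfkbie and Timp3 were named after their values were seen. Alternatives were scaling, a filter on dim genes, the replicate block, array weights, a variance trend, averaged rows and leaving out arrays. Cd4 differed by 0.14 ± 0.27 (SE) between the fractions and Il2ra by -0.22 ± 0.22 (SE).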

Additional observations from a re-analysis of the deposited data

How the results depend on the processing

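Over all alternatives but array weights, 0 genes and 0 of the 8 receptors were called. With limma's array weights, 2174 genes and 1 receptor, Tnfrsf1a (0.92, limma adjusted p = 0.0233), were called. That fit of the weights did not converge and gave GPR15+ replicate 6 a weight of 6.56 against 0.191 for GPR15+ replicate 1. Weights fitted gene by gene, chosen after seeing the data, called 2 genes and 0 receptors. For Tnfrsf1a the adjusted p from limma ran from 0.0233 to 1.000 over the alternatives. With the replicate block, Tnfrsf1a differed by the same 1.08 and no call changed. The contrast of the TNF receptors kept its direction wherever it was run. It was not run with array weights, the variance trend or the filter on dim genes. Centred arrays, the replicate block and averaged rows could not change it and gave the same 0.73. Tnfrsf1a, Tnfrsf1b, Tnfrsf8, Tnfrsf9 and Tnfrsf25 kept their direction in every alternative run. With array weights, however, Tnfrsf1b lay at only 0.036 and Tnfrsf18 lay at -0.046. Tnfrsf4 turned to 0.0055 with arrays centred on their medians. Tnfrsf14 turned to -0.0098 with array weights and to -0.014 with weights fitted gene by gene. Leaving out 1 array in turn, the differences ran from 0.92 to 1.21 for Tnfrsf1a, 0.10 to 0.54 for Tnfrsf1b, -0.19 to 0.015 for Tnfrsf4, -0.27 to -0.15 for Tnfrsf8, -0.65 to -0.31 for Tnfrsf9, -0.54 to 0.12 for Tnfrsf18, -0.31 to -0.15 for Tnfrsf25 and -0.22 to 0.32 for Tnfrsf14. The contrast ran from 0.61 to 0.82. Without both arrays numbered 1, Tnfrsf1a differed by 1.17 (limma adjusted p = 0.104). List medians near 0 turned sign with scaling: with arrays centred, that of the other receptors was 0.02. How far signal stood above background is unknown.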
